A study of Mus musculus with 8 samples.

Results

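Skeletal muscle fibre genes were followed in the lungs of E18.5 mouse embryos (embryonic days after mating). The 8 genes were Acta1, Myh3, Myh8, Mylpf, Tnnt3, Tnnc2, Tnni2 and Myl1, matched by the gene symbol that the platform annotation gives each array probe. Of the 8 genes, 7 had a probe, and they held 9 of the 25697 probes on the array, while no probe carried the symbol Myh3. The genes were chosen by signals measured on these same arrays, their higher level in mutant lungs with PTU among them, so the differences below describe the 4 RNA samples and carry no test of their own.

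The study compared mutant and wild-type (WT) embryos for SMRT, a corepressor that nuclear receptors recruit to hold target genes silent. In the mutant, called SMRTmRID or mRID here, the receptor interaction domains of SMRT are changed, so that nuclear receptors such as the thyroid hormone receptor cannot recruit it through them. Mothers ate a diet with 0.15% propylthiouracil (PTU), a drug that blocks thyroid hormone synthesis, for 2 days from E16.5, or control chow. The 4 groups were mRID embryos with PTU, WT embryos with PTU, mRID embryos on control chow and WT embryos on control chow, all on the c57Bl6/J background. Each group was 1 RNA sample measured on 2 Illumina bead arrays, which the labels call technical replicates, and the sources used here do not say how many embryos gave each RNA. The spread between the arrays of a group is therefore measurement error only, and no value below shows how much embryos differ.

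The muscle fibre contracts when myosin in the thick filaments pulls on actin in the thin filaments. Acta1 encodes the alpha-actin of the skeletal thin filament, Myh3 and Myh8 the embryonic and perinatal myosin heavy chains, Mylpf and Myl1 the regulatory and essential light chains of fast myosin, and Tnnt3, Tnnc2 and Tnni2 the 3 subunits of fast troponin, the calcium switch on the thin filament. Developing muscle switches these genes on under MyoD-family and MEF2 factors, which bind E-boxes and MEF2 sites, and serum response factor, which binds CArG boxes. Lung tissue itself holds smooth muscle and, around its large veins, heart-type muscle, but no skeletal fibres. Tnni2 and Tnnt3 lie near each other on chromosome 7 with Lsp1 between them, and Myh3 and Myh8 belong to the myosin heavy chain cluster on chromosome 11.

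Promoter sequences are shown for the 3 genes with the largest differences between mRID PTU and mRID control lungs, Acta1, Myh8 and Myl1. They come from RefSeq on the GRCm38.p6 build and run 5′ to 3′ on the strand of the gene. Each covers 250 bases before to 50 bases after an annotated start, which is the start of the whole gene for Acta1 and Myh8 only. The windows lie at chr8:123894726-123895025 (minus strand) for Acta1, chr11:67276874-67277173 (plus strand) for Myh8 and chr1:66945007-66945306 (minus strand) for Myl1. Capitals mark matches to an E-box (CANNTG), a MEF2 site, a CArG box or TATAAA, searched on both strands except for TATAAA, which was searched on the gene's own strand.
Acta1: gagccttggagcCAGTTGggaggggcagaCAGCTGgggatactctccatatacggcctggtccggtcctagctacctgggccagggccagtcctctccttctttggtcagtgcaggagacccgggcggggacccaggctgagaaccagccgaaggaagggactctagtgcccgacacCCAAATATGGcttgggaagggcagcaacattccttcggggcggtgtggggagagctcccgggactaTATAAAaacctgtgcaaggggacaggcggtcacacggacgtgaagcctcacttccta
Myh8: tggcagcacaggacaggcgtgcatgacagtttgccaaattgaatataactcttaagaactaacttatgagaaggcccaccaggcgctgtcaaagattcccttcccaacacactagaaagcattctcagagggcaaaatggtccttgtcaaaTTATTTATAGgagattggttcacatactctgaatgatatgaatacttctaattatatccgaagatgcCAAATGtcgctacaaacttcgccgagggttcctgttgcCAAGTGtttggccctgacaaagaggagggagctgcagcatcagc
Myl1: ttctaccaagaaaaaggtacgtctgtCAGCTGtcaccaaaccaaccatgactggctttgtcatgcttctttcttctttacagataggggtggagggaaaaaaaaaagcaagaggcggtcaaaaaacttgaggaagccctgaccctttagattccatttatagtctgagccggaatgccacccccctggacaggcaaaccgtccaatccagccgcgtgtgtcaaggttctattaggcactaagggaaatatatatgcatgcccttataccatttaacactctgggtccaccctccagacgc
The Acta1 window held 2 E-boxes, 1 CArG box and TATAAA. The Myh8 window held 2 E-boxes and 1 MEF2 site, and the Myl1 window held 1 E-box. The Myl1 start in this annotation lies inside the gene. Over all 32851 mouse promoter windows of the same length, 72.3% held an E-box, 3.2% a MEF2 site, 1.6% a CArG box and 8.3% TATAAA. Promoter windows were found for 6 of the 8 genes, Tnnt3 and Tnni2 being the others. Matches are letters only, and no binding was measured.

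The arrays held lung RNA, as labelled. Of 10 lung epithelial genes, 9 were detected, the exception being Hopx, and the surfactant gene Sftpc read 13.51 to 13.76 on the log2 scale below. Over the 10298 genes kept, each read by its brightest probe, arrays of the same RNA sample correlated at 0.997. Arrays of different RNA samples correlated at 0.989 to 0.994. Between 54.7% and 58.8% of probes were detected on an array (detection p under 0.05). Signals are given as normalized log2 values; probes at the edge of detection read between 4.54 and 4.69. A gene is called higher or lower here when the group means differ at least 1.5-fold and the 2 arrays of one group do not overlap the 2 of the other. Fewer muscle cells and less muscle RNA per cell cannot be told apart in these bulk samples.

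Acta1, the skeletal actin, had normalized log2 signals of 6.66 and 6.60 in mRID PTU lungs, 5.03 and 4.94 in WT PTU lungs, 5.02 and 4.98 in mRID control lungs, and 5.07 and 5.10 in WT control lungs. The mRID PTU arrays stood apart from the other 3 groups, which were close to each other, and the probe was detected on all 8 arrays. The mRID PTU signal was 3.09-fold higher than the mRID control signal (log2 difference 1.63, SE over arrays 0.08) and 3.12-fold higher than the WT PTU signal. Without background correction the log2 difference from mRID control was 0.97.

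Myh8, the perinatal myosin heavy chain, had 2 probes that disagreed. Its brighter probe read 7.07 and 6.97 in mRID PTU lungs, 5.04 and 4.93 in WT PTU lungs, 5.94 and 5.91 in mRID control lungs, and 5.94 and 5.97 in WT control lungs. WT PTU was the low group for this probe, and the arrays of the 2 control-chow groups overlapped. The mRID PTU signal was 2.13-fold higher than in mRID control (log2 difference 1.09, SE over arrays 0.09) and 4.10-fold higher than in WT PTU, while the WT PTU signal was 1.96-fold lower than in WT control. The dimmer probe was detected on both mRID PTU arrays, on 1 mRID control and 1 WT control array and on neither WT PTU array, so that it passed the detection filter through mRID PTU alone. That probe read 5.04 and 4.81 in mRID PTU lungs, 4.61 and 4.37 in WT PTU lungs, 4.6 and 4.67 in mRID control lungs, and 4.72 and 4.42 in WT control lungs. Its log2 difference between mRID PTU and mRID control was 0.30 and was not called. With the mean of both probes the Myh8 difference was 0.70, and without background correction the difference of the brighter probe from WT PTU was 1.27.

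Myl1, the fast essential light chain, read 8.14 and 8.07 in mRID PTU lungs, 6.58 and 6.38 in WT PTU lungs, 6.74 and 6.74 in mRID control lungs, and 7.51 and 7.59 in WT control lungs. All 4 groups stood apart, in the order mRID PTU, WT control, mRID control, WT PTU. The signal was 2.57-fold higher in mRID PTU than in mRID control (log2 difference 1.36, SE over arrays 0.09), 3.09-fold higher than in WT PTU, 2.10-fold lower in WT PTU than in WT control and 1.75-fold lower in mRID control than in WT control. A second Myl1 probe, for the same transcript record, was not detected on any array and read 4.20 to 4.36.

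Mylpf, the fast regulatory light chain, read 5.72 and 5.72 in mRID PTU lungs, 5.19 and 5.45 in WT PTU lungs, 5.0 and 5.20 in mRID control lungs, and 5.35 and 5.26 in WT control lungs. Its mRID PTU arrays were above the others by a small margin, 1.54-fold over mRID control (log2 difference 0.62, SE over arrays 0.11) and 0.40 on the log2 scale over WT PTU. Without mRID control array A the difference from mRID control was 0.52 and no longer called, and without background correction it was 0.33 and not called.

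None of the troponin genes was called in a pairwise comparison. Tnnt3 read 4.87 and 5.06 in mRID PTU lungs, 4.74 and 4.6 in WT PTU lungs, 4.28 and 4.57 in mRID control lungs, where it was not detected, and 4.62 and 4.97 in WT control lungs. Only its mRID control arrays lacked detection, and its mRID PTU level, at least 1.26-fold that of mRID control, was not called. Tnni2 was detected on all 8 arrays, reading 5.49 and 5.34 in mRID PTU lungs, 4.95 and 4.98 in WT PTU lungs, 5.31 and 4.97 in mRID control lungs, and 5.48 and 5.41 in WT control lungs. Tnni2 was highest in WT control by mean, and its WT PTU arrays were below its WT control arrays by a log2 difference of -0.48, under the threshold. Tnnc2 read 4.56 and 4.91 in mRID PTU lungs, 4.28 and 4.32 in WT PTU lungs, 4.26 and 4.23 in mRID control lungs, and 4.51 and 4.50 in WT control lungs. It was detected on 1 array only, in mRID PTU, and did not pass the filter.

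**Figure D1:**
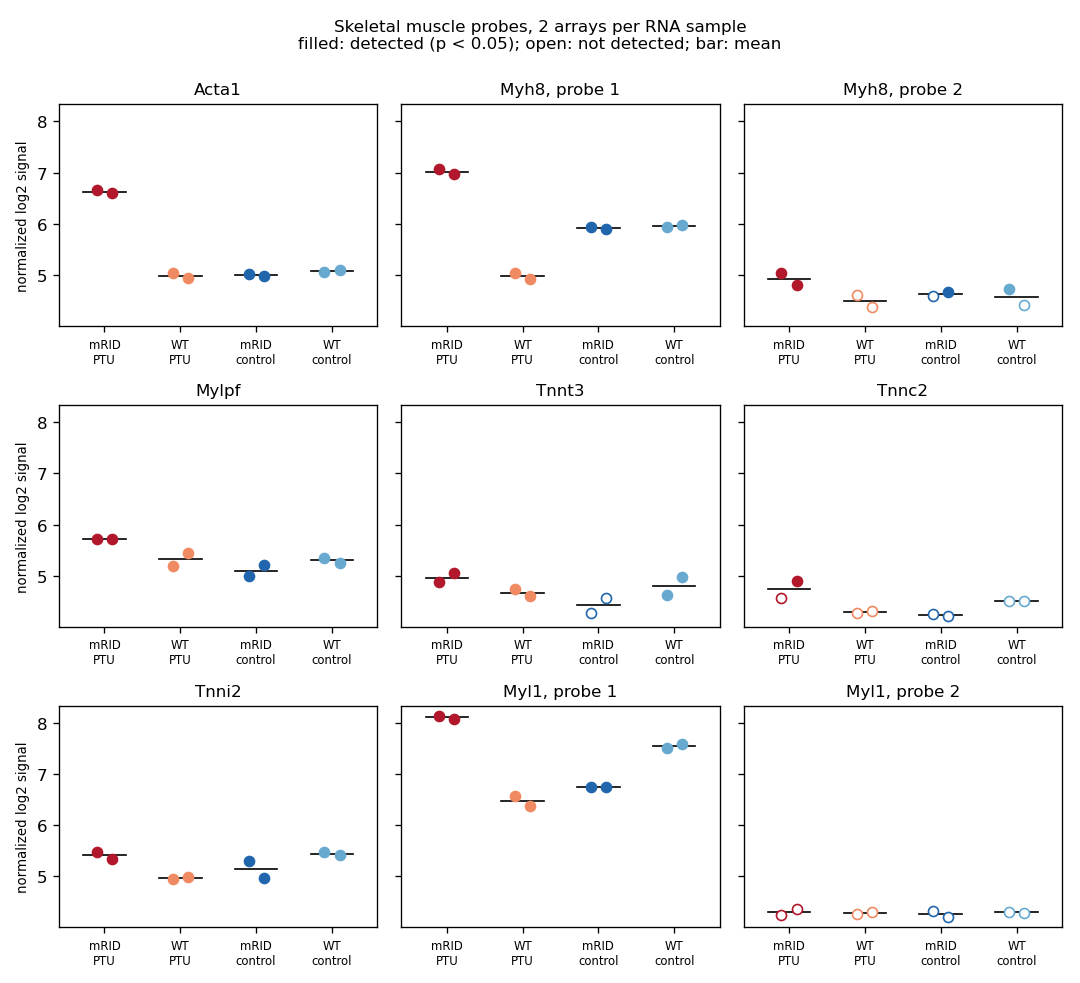
Normalized log2 signal (vertical axis) of the 9 probes of the skeletal muscle genes, 2 arrays per RNA sample, with filled points detected (p under 0.05), open points not detected and bars at the mean. Acta1, the first Myh8 probe and the first Myl1 probe are highest on both mRID PTU arrays, and Tnnc2, the second Myh8 probe and the second Myl1 probe sit near the detection floor.

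Of the 6 skeletal genes that passed the filter, 4 were called higher in mRID PTU than in mRID control (Acta1, Myh8, Mylpf and Myl1) and 0 lower. Their median log2 difference was 0.86, against -0.02 over all 10298 genes. The background was 2.52% of all genes called higher and 0.816% called lower, and nothing is read from the comparison because these arrays chose the genes. Against WT PTU, 3 were higher in mRID PTU (Acta1, Myh8 and Myl1) and 0 lower, with a median of 1.04 and a background of 3.52% higher and 0.67% lower. PTU in WT embryos gave 0 higher and 2 lower (Myh8 and Myl1) relative to WT control, with a median of -0.31 and a background of 1.11% higher and 2.45% lower. In mRID control relative to WT control, 1 was lower (Myl1) and 0 higher, with a median of -0.26 and a background of 0.437% higher and 1.18% lower. The genotype-by-diet term subtracts the WT difference between diets from the mRID one. It was at least 1.5-fold positive for all 6 genes (0.60 for Mylpf to 2.43 for Myl1, median 1.24), with a background of 6.49% positive and 3.63% negative. For Tnnt3, not detected in mRID control, the term was 0.67 from the measured means but 0.46 with that group at the detection floor, which is 1.37-fold, so that 5 of the 6 reached 1.5-fold at the floor. A positive term was not particular to these genes. It was at least 1.5-fold positive for 10 of 20 genes shared by heart and skeletal muscle, 4 of 6 heart genes and 4 of 8 smooth muscle genes, with 0 negative in each list. Of 5 mesothelial genes 4 were positive and 1 negative. Of 9 squamous epithelial genes 5 were positive and 1 negative, and of 5 liver genes 2 were positive and 0 negative. Of 9 lung epithelial genes 1 was positive and 0 negative. These comparisons share arrays, so their counts are not independent of one another.

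Of the wider skeletal muscle genes, none was called in either direction in mRID PTU relative to mRID control or to WT PTU. That list held 57 genes of fibre filaments, excitation and calcium release, muscle metabolism, and muscle regulators and fusion. Of these, 45 had a probe, 15 passed the filter and 25 were undetected on all arrays. Their median log2 difference was -0.04 against mRID control and -0.005 against WT PTU. Levels in mRID PTU lungs ran from the edge of detection, as for Actn3 (4.55 and 4.67), Fbp2 (4.72 and 4.59) and Tnni1 (4.73 and 4.52), to Tpm3 (10.02 and 9.87). For genes near that edge, differences can be resolved only in part, which limits what the absence of calls shows. Regulators of muscle identity and fusion genes were mostly undetected. Of the 8 with a probe, 7 were undetected on all arrays, including the MyoD-family factors Myod1, Myf5 and Myf6, the satellite cell factor Pax7 and the fusion gene Mymk, and none passed the filter. Tnnt1, the slow skeletal troponin T, was 6.63 and 6.61 in mRID PTU lungs, 6.58 and 6.64 in WT PTU lungs, 6.91 and 7.07 in mRID control lungs, and 7.56 and 7.65 in WT control lungs. Tnnt1 was thus lower in both PTU groups than in either control group. With PTU in WT embryos 5 of the 15 genes were lower (Cox8b -0.85, Fbp2 -1.01, Pgam2 -0.59, Tnni1 -0.74 and Tnnt1 -1.0 on the log2 scale) and 0 higher. In mRID control relative to WT control 4 were lower (Cox8b -0.59, Fbp2 -1.08, Pgam2 -0.89 and Tnnt1 -0.62) and 0 higher. Cox8b, Pgam2 and Tnni1 are also active in heart muscle. The genotype-by-diet term was at least 1.5-fold positive for 3 of the 15. Over all genes, 2.45% were called lower with PTU in WT embryos and 1.18% in mRID control relative to WT control. The term was at least 1.5-fold positive for 6.49% of all genes.

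**Figure D2:**
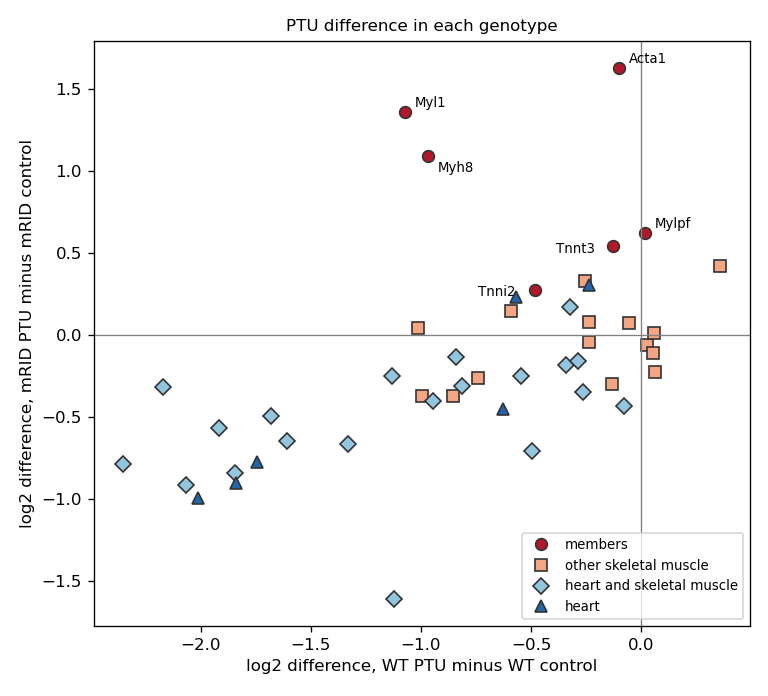
Log2 difference of PTU against control in mRID embryos (vertical axis) plotted against that in WT embryos (horizontal axis) for the 6 skeletal genes (members, red, named), other skeletal genes, genes shared by heart and skeletal muscle, and heart genes. Acta1, Myl1 and Myh8 lie above 1 on the vertical axis, and most shared and heart genes lie below 0 on both axes.

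Muscle genes that heart and skeletal fibres share were called lower more often than higher with PTU in both genotypes. Of 26 such genes, 20 passed the filter, with a median of -0.42 in mRID PTU relative to mRID control. In that comparison 7 were lower (0.816% of all genes) and 0 higher (2.52% of all genes). They included Myl3, a slow myosin light chain, at -1.61, Tnnc1 at -0.91, Actc1, the cardiac actin, at -0.84 and Sln at -0.79 on the log2 scale. Against WT PTU, 1 was higher (Csrp3, 0.59) and 1 lower (Myl3, -0.69), and each count was 0 or 1 when single arrays were left out. With PTU in WT embryos 13 of the 20 were lower (2.45% of all genes). In mRID control 9 of 20 were lower than in WT control (1.18% of all genes). Summed linear signal over this list was 1777 to 1778 in mRID PTU, 1509 to 1616 in WT PTU, 2832 to 2833 in mRID control and 5468 to 5479 in WT control. For the 6 skeletal genes the sum was 521 to 548 in mRID PTU, 148 to 159 in WT PTU, 195 to 196 in mRID control and 291 to 306 in WT control. The sum of these 6 genes, chosen partly for a higher level in mRID PTU on these arrays, was thus highest in mRID PTU. Over the 15 genes of the wider skeletal list it was 1766 to 1809 in mRID PTU and 1586 to 1753 in WT PTU. The same 15 genes gave 1824 to 1833 in mRID control and 2074 to 2076 in WT control. Both the wider skeletal sum and the shared sum were thus highest in WT control. The part of the shared heart-type genes in the skeletal differences was not tested.

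The same held for heart genes. Of 12, 6 passed the filter, and Nppb, Nkx2-5, Tbx20 and Ryr2 were undetected on all arrays. Myh6, the atrial myosin heavy chain, read 7.11 and 7.32 in mRID PTU lungs, 7.06 and 7.12 in WT PTU lungs, 8.01 and 7.97 in mRID control lungs, and 8.83 and 8.83 in WT control lungs. In mRID PTU relative to mRID control 3 of the 6 were lower (Myl7 -0.99, Mybphl -0.90 and Myh6 -0.78) and 0 higher, against 0.816% and 2.52% of all genes. In WT PTU relative to WT control 4 were lower and 0 higher, against 2.45% and 1.11% of all genes. Summed heart signal was 308 to 330 in mRID PTU, 268 to 276 in WT PTU, 568 to 585 in mRID control and 1006 to 1066 in WT control.

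**Figure D3:**
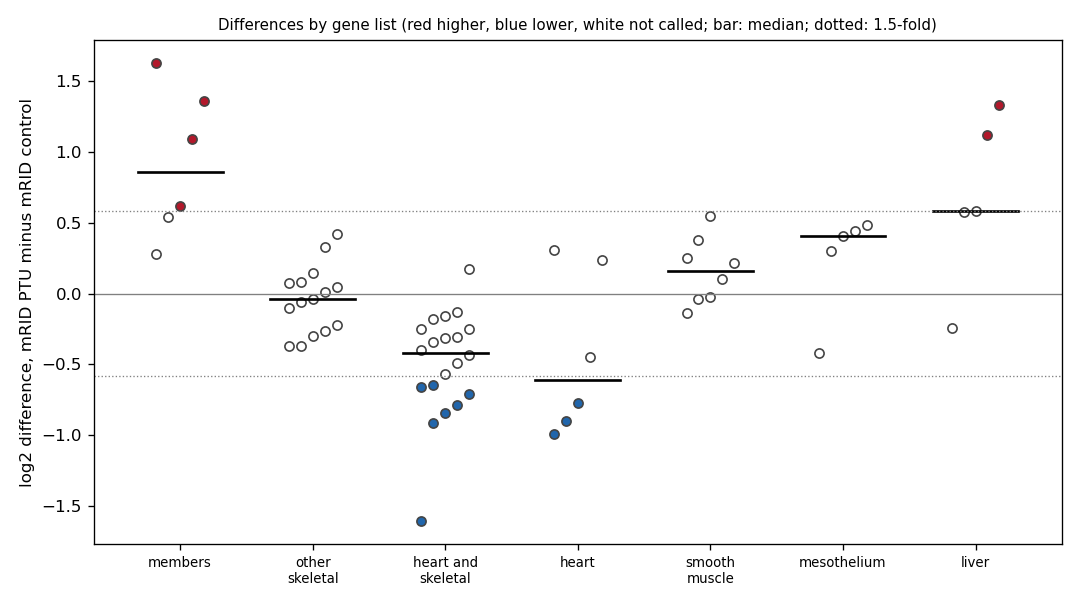
Log2 difference between mRID PTU and mRID control lungs (vertical axis) for each gene that passed the filter, by list, with red points called higher, blue points called lower, bars at the median and dotted lines at 1.5-fold; members are the 6 skeletal genes. Of these 6, which were chosen by signals on these arrays, 4 are called higher. Of 15 other skeletal genes 0 are called, and 7 of 20 shared and 3 of 6 heart genes are called lower.

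Skeletal members were highest in mRID PTU in 5 of 6 cases, Tnni2 being highest in WT control. The members were chosen partly for a higher level in mRID PTU on these arrays, so nothing is read from this count. The mean was also highest in mRID PTU for 4 of 15 other skeletal genes, 0 of 20 shared genes, 1 of 6 heart genes and 21.7% of all genes. WT control was the highest group for 7 of 15 other skeletal, 18 of 20 shared and 5 of 6 heart genes, against 25.2% of all genes.

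**Figure D4:**
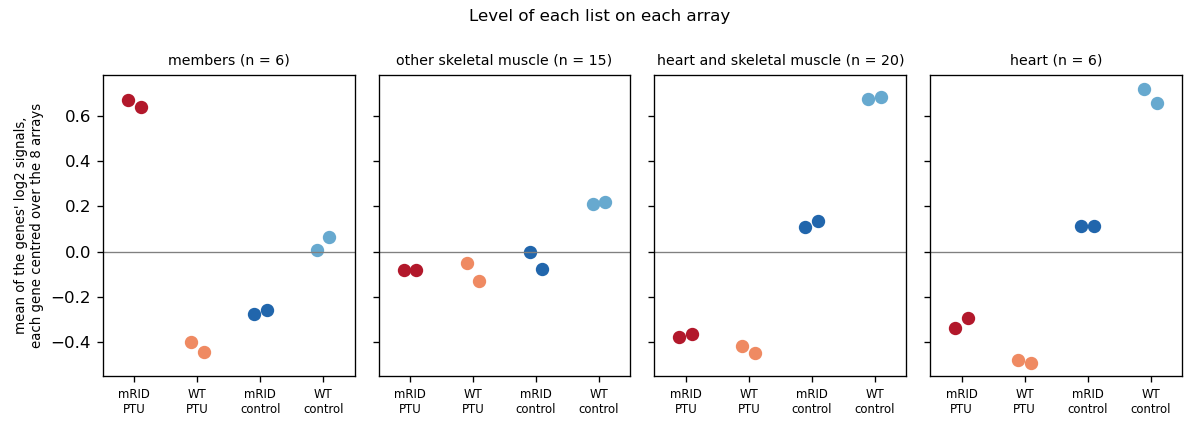
Mean log2 signal of each gene list on each of the 8 arrays after centring each gene over the arrays (vertical axis); members are the 6 skeletal genes. The members, chosen partly for a higher level there on these arrays, are highest in mRID PTU. Other skeletal, shared and heart genes are highest in WT control.

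Other tissues also differed between the groups. Over all genes, 2.52% were called higher and 0.816% lower in mRID PTU relative to mRID control, and 3.52% and 0.67% relative to WT PTU. For WT PTU against WT control the shares were 1.11% higher and 2.45% lower. For mRID control against WT control they were 0.437% higher and 1.18% lower. Liver genes were 2 higher and 0 lower of 5 in mRID PTU relative to mRID control, Ahsg at 1.34 and Ttr at least 1.97-fold, and the summed liver signal was 108 to 119 in mRID PTU, 48.1 to 57.9 in WT PTU, 34.3 to 39.0 in mRID control and 20.2 to 26.0 in WT control, with Alb, Fgb and Serpina1a undetected on all arrays. Mesothelial genes mark the lining of the lung surface and of the chest cavity. Of these genes, 0 of 5 were called against mRID control (median 0.41). Against WT PTU 4 of 5 were higher (Lrrn4 1.14, Upk3b 0.95, Msln 0.63 and Upk1b 0.62). Squamous epithelial genes were 0 higher and 2 lower of 9 against mRID control, the keratins Krt4 at -0.98 and Krt13 at least 1.45-fold lower. In WT PTU relative to WT control, where Myh8 and Myl1 were lower, 5 of these 9 were lower and 1 higher, with Krt4 at least 10.2-fold and Krt13 at least 8.84-fold lower. In mRID control relative to WT control, where Myl1 was lower, 5 were lower and 0 higher, with Krt13 6.36-fold and Krt4 4.85-fold lower. Among sex-linked genes, Kdm5d on the Y chromosome was higher (0.70) and Xist lower (-0.71) in mRID PTU than in WT PTU, with 0 of 4 called against mRID control. In WT PTU relative to WT control Xist was higher (0.99) and Kdm5d (-0.72) and Eif2s3y (-0.63) lower, while 0 of 4 were called in mRID control relative to WT control, so the WT PTU sample stood apart in these genes. The part of any of these in the skeletal differences was not tested. Smooth muscle genes were called 0 of 8 against mRID control, and none of the thymus, cartilage, bone and tendon, or peripheral nerve genes was called in mRID PTU relative to mRID control or to WT PTU. The cartilage gene Col2a1 was lower in mRID control than in WT control (-0.71), and Thy1 (0.71) and Hapln1 (0.59) passed 1.5-fold in the genotype-by-diet term. Of the lung epithelial genes 1 was lower, Sftpb, a surfactant protein gene, at -0.65 in mRID PTU against mRID control. No brown fat or thyroid gland gene passed the filter.

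Among 221 genes whose group means spanned at least 1 log2 unit, the 10 most like the mean profile of the 6 skeletal genes over the 8 arrays of 4 RNA samples were Klf6 (Pearson r 0.998), Sec14l3 (0.997), Map1b (0.989), Ptprf (0.987), Rgs7bp (0.983), Lipa (0.976), Cacna2d1 (0.974), Hyal1 (0.967), Foxp1 (0.964) and Dag1 (0.964). Of the 221, 64 had r over 0.9. Klf6, a zinc finger transcription factor, averaged 10.71 in mRID PTU, 9.05 in WT PTU, 9.26 in mRID control and 9.70 in WT control on the log2 scale. The arrays share their RNA sample in pairs, so these r values describe 4 points.

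Averaging the 2 arrays of each RNA sample left 4 values for a limma fit with genotype and diet, which leaves 1 residual degree of freedom and cannot hold the genotype-by-diet term. After Benjamini-Hochberg adjustment it called 0 of 10298 genes for either term, with 253 genes for genotype and 343 for diet at an unadjusted p under 0.05. For diet, 15 of 20 genes of the shared list were at an unadjusted p under 0.05, with a lowest adjusted p of 0.0992, and 4 of 6 heart genes, with a lowest adjusted p of 0.187. Of the wider skeletal list, 4 of 15 reached that level for diet and 2 of 15 for genotype.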

How the data were processed

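Lungs of E18.5 mouse embryos were measured on 8 Illumina arrays. The deposited tables hold, per probe, an intensity (average bead signal, not normalized) and a detection p-value, made by the authors with GenomeStudio per the submitters' processing notes. The authors' processed value table holds linear intensity with array medians of 52.3 to 52.4; no source used here states its normalization, and it served as an alternative. In limma 3.58.1 (R 4.3.3), neqc corrected background with the detection p-values, added an offset of 16, took log2 and quantile normalized. Probes detected (p under 0.05) on each array of some group were kept (14965 of 25697 probes), and each gene took its brightest probe (10298 genes). Of the probes, 23978 had 1 gene symbol and 1719 had none. With 1 RNA sample per group there is no replicate test: a gene was called at a 1.5-fold difference with arrays that did not overlap, and the genotype-by-diet term at 1.5-fold alone. SEs come from limma over arrays and cover array error only. The column letters of the arrays were not matched to replicate numbers. Named genes were the 8 skeletal genes, called genes of the wider skeletal list and up to 4 called genes of each other list by size in the mRID PTU comparisons, and the 10 genes with the most similar profile; genes named for other comparisons or as undetected were chosen after their values were seen. The members and lists were chosen with earlier results of these data known. The calls and fits were run on simulated data that held array error only. With no variation between RNA samples in it, that run cannot show how reliable calls between single RNA samples are. Alternatives changed the normalization, background correction, offset, filter, probe rule, threshold and arrays used.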

Additional observations from a re-analysis of the deposited data

Results flagged for a closer look

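For some genes both mRID PTU arrays lay on one side of both mRID control arrays while both WT PTU arrays lay on the other side of both WT control arrays. No test between RNA samples bears on these differences, which were not tested because each group was 1 RNA sample. Values below are the log2 difference between diets in mRID embryos less that in WT embryos, for probes that passed the detection filter, with no minimum size. The pattern was looked for only in the genes of the lists. Its share over all genes was not counted, so the number of genes with it is not read as a result. Among the skeletal genes the value was 1.73 for Acta1, 2.06 for the first Myh8 probe, 0.76 for Tnni2 and 2.43 for the first Myl1 probe. Tnnc2 had the same pattern but did not pass the filter. Of these skeletal genes, only for Myh8 and Myl1 did the difference pass the call in both genotypes. Acta1 differed by -0.10 with PTU in WT lungs, and Tnni2 was called in neither genotype (0.28 in mRID and -0.48 in WT).

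In the wider skeletal list the value was 0.74 for Pgam2, the muscle phosphoglycerate mutase, and 0.58 for Pygm, the muscle glycogen phosphorylase. Pgam2 differed by 0.15 with PTU in mRID lungs, under the threshold. The value was 0.49 for Nrap of the shared list and 0.80 for the cardiac troponin I gene Tnni3. Smooth muscle genes with the pattern were Myh11 (0.83), Acta2 (0.52), Smtn (0.18), Mylk (0.64) and Myocd (0.91). Mesothelial genes were Msln (0.95), Upk3b (1.34), Upk1b (1.19), Lrrn4 (0.84) and, with the opposite sign, Wt1 (-0.74). The others were Krt15 (1.00), Thy1 (0.71), Hapln1 (0.59), Ager (0.57), Hnf4a (-0.55) and Mbp (-0.37).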

How the results depend on the processing

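No called result changed direction under any alternative run. In mRID PTU relative to mRID control, 3 to 5 of the skeletal genes were called higher over all alternatives. The log2 difference of Acta1 lay between 0.97 (no background correction) and 2.12 (offset of 4, chosen after seeing the data), that of Mylpf between 0.33 and 0.87, and Mylpf was not called without background correction or with the authors' processed values. The genotype-by-diet count of 6 became 3 without background correction, with the authors' processed values and at a fold threshold of 2, and the 2 genes lower in WT PTU against WT control became 1 under the same alternatives and with the mean of a gene's probes, which takes in both Myh8 probes. The count lower in mRID control against WT control was 2 at the offset of 4. At a fold threshold of 2 the gene lower in mRID control against WT control, Myl1, was no longer called. In the wider skeletal list, the counts in WT PTU against WT control, in mRID control against WT control and in the genotype-by-diet term, 5, 4 and 3 as reported, were 1, 1 and 0 without background correction, 1, 1 and 1 with the authors' processed values, and 1, 1 and 1 at a fold threshold of 2. With limma on the authors' processed values and the replicate block they were 1, 1 and 1. The technical replicate numbers did not pair the samples: deviations of same-numbered arrays correlated between -0.10 and 0.13. With the offset of 4 the counts were 1 in mRID PTU against mRID control (Stac3) and 6 in the term. Medians of that list moved to -0.023 in WT PTU against WT control and 0.012 in the term without a detection filter, to -0.22 in mRID control against WT control and 0.32 in the term at detection p under 0.01, and to -0.22 in mRID control against WT control with the mean of a gene's probes. Leaving out 1 array at a time gave counts for that list of 0 to 0 in both mRID PTU comparisons, 4 to 5, 2 to 4 and, in the term, 2 to 5, and medians of -0.12 to -0.0082, -0.037 to 0.060, -0.23 to -0.14, -0.19 to -0.075 and 0.13 to 0.29. The count of 2 came without WT control array B, the median of -0.19 without mRID control array A and the count of 5 in the term without WT PTU array A. The cause of these changes was not tested. Most skeletal probes read near the detection floor, which limits how far their fold changes can be resolved.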

Other observations

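Of 8 smooth muscle genes, 0 were called in mRID PTU relative to mRID control (median log2 difference 0.16), and against WT PTU 1 was higher, Myocd, a coactivator of serum response factor, at 0.67 on the log2 scale. In WT PTU relative to WT control 2 were lower. Over all genes 3.52% were called higher in mRID PTU than in WT PTU, and 2.45% lower in WT PTU than in WT control.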
